A study of Mus musculus with 18 samples.

Results

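*Slpi*, *Wfdc17* and *Wfdc21* encode small secreted proteins built on the whey acidic protein (WAP) domain, a compact fold held together by disulfide bonds. They were taken by their symbols from the expression table, where all 3 genes were found among 34896 genes, and within the 23 listed genes of the WFDC family. Granulocyte-monocyte progenitors (GMPs), preneutrophils (preNeu) and mature neutrophils (matNeu) had been sorted from the bone marrow of adult wild type C57BL/6 mice of 6 to 12 weeks, and RNA-seq was done with 3 libraries for each cell type. H3K4me2, a histone mark of promoters and enhancers, was mapped by ChIP-seq with 1 library in each of these cell types. CHD4 was mapped with 1 library in wild type (WT) GMPs and 1 library in GMPs of *Gfi1*-/- mice (Gfi1KO) on the same background. GMPs were gated as lineage negative, c-KIT positive and SCA1 negative cells that carry CD16/32 and CD34, and the neutrophil stages were gated from MAC-1 and GR1 positive cells by c-KIT, CXCR4, Siglec-F and CXCR2. By the study's methods the marrow of the long bones was pooled before sorting and the RNA libraries are triplicates, but it is not stated that they came from separate mice, so that a p-value here measures the spread between libraries, which may be technical.

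SLPI, the secretory leukocyte protease inhibitor, binds neutrophil elastase and cathepsin G and is made by neutrophils and by the lining cells of airways and other surfaces. WFDC17 has been described in activated macrophages and microglia, and WFDC21 is a related small secreted protein. Elastase (*Elane*), proteinase 3 (*Prtn3*) and cathepsin G (*Ctsg*) are the serine proteases of the primary granules. They are made early, at the promyelocyte stage, and they outlive their own mRNA inside the granule. CHD4 is the ATPase of the NuRD chromatin remodeling complex, and GFI1 is a transcriptional repressor that neutrophil development requires.

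*Slpi* (ENSMUSG00000017002) lies on the minus strand of chromosome 2 of GRCm38 at chr2:164354070-164389095 in GENCODE M21. Its first transcript has 4 exons, starts at 164356507 and codes for 131 residues, whereas a longer annotated transcript starts at 164389095 and gives the gene its length of 35026 bp. *Wfdc17* (ENSMUSG00000069792, chr11:83703991-83706268) and *Wfdc21* (ENSMUSG00000051748, chr11:83746940-83752642) lie on the plus strand of chromosome 11, separated by 40672 bp with *Wfdc18* in between. They have 3 exons each and code for 76 and 63 residues. None of the 1145, 503 and 404 different words of 31 bases in the transcripts of *Slpi*, *Wfdc17* and *Wfdc21* occurred in a transcript of another gene of this annotation. No near-identical copy was found at that length.

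The sequences on which the chromatin data bear are the 200 bases around the strongest CHD4 summit of WT GMPs near *Slpi* and near *Wfdc21*, and the 200 bases upstream of each annotated start, which H3K4me2 covered in at least 1 cell type. For *Wfdc17* the strongest CHD4 summit lies inside the upstream window, 37 bases from the start. The windows are chr2:164372749-164372948 and chr2:164356508-164356707 for *Slpi* (minus strand), chr11:83703791-83703990 for *Wfdc17* (plus strand), and chr11:83737421-83737620 and chr11:83746740-83746939 for *Wfdc21* (plus strand), all in GRCm38. Capitals mark the letters searched on both strands, AAATCA for GFI1, GAGGAAGT for SPI1 (PU.1), TTGCNNAA for C/EBP factors, TGTGGT for RUNX factors, AANNGAAA for IRF factors and TATAAA for a TATA box.
Slpi CHD4 site: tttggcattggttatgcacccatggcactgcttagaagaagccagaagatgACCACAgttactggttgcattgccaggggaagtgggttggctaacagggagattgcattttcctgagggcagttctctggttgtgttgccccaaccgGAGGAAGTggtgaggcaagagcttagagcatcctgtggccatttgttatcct
Slpi upstream: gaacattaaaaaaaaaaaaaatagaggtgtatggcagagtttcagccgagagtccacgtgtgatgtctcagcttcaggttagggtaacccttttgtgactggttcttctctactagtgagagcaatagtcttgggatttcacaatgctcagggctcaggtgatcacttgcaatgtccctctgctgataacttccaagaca
Wfdc17 upstream: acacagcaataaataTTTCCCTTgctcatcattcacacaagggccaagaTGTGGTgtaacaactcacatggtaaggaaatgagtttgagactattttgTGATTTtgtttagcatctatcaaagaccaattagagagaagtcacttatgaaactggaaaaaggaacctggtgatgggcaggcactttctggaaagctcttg
Wfdc21 CHD4 site: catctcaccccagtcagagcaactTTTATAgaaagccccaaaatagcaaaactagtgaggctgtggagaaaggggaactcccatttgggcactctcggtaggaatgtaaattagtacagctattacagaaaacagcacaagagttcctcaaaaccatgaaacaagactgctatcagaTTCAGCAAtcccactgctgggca
Wfdc21 upstream: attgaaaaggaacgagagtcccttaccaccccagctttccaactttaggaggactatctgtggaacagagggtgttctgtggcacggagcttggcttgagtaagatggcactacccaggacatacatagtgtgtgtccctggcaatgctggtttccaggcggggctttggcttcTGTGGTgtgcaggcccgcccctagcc
The CHD4 window of *Slpi* held the RUNX letters at bases 52 to 57 on the reverse strand and the SPI1 letters at bases 149 to 156. The upstream window of *Wfdc17* held the IRF letters at bases 16 to 23 and the GFI1 letters at bases 99 to 104, both on the reverse strand. It also held the RUNX letters at bases 50 to 55, and the matches did not overlap each other. In the CHD4 window of *Wfdc21* the TATA letters stood at bases 25 to 30 and the C/EBP letters at bases 178 to 185, both on the reverse strand. The upstream window of *Wfdc21* held the RUNX letters at bases 175 to 180, and that of *Slpi* held none of the 6 motifs. Such letters are common. Of 35728 CHD4 summit windows of the same length, 23.9% held the RUNX letters, 11.7% the SPI1 letters, 17.3% the C/EBP letters, 8.81% the TATA letters, 12% the GFI1 letters and 35.1% the IRF letters. Of 21938 windows upstream of protein-coding genes, 10.5% held the RUNX letters, 9.2% the GFI1 letters and 16.5% the IRF letters. A match is a description of the sequence and not a site.

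Samples were grouped by their titles, from which the cell type label differs for 13 of 18 samples, among them all 9 RNA libraries and the H3K4me2 libraries titled preNeu and matNeu. In the RNA libraries the markers followed the titles, while the H3K4me2 libraries have no RNA to check. *Mpo* and *Elane* were highest in GMPs, *Ltf*, *Ngp* and *Camp* in preNeu, and *Cxcr2*, *Mmp8* and *Ccl6* in matNeu cells. Between 10754 and 12256 genes reached 1 TPM in a library. TPM is a transcript level scaled by transcript length and library size, so levels of different genes can be compared, but it keeps no depth, and the depth behind each value is unknown. In bulk samples fewer cells of a type and less RNA per cell cannot be told apart. B and T cell markers (5 genes) had sums of 32.1 to 78.8 TPM in matNeu libraries, 8.94 to 24 TPM in preNeu libraries and 0.667 to 1.13 TPM in GMP libraries, with all 5 markers below 1 TPM on average in GMPs and *Cd3e* below 1 TPM in every cell type. The sums of 8 monocyte and macrophage markers were 3840 to 4616 TPM in GMP libraries, 1981 to 2423 TPM in preNeu libraries and 1162 to 1513 TPM in matNeu libraries, where *Ccr2* was below 1 TPM. Of these 8, *Adgre1* and *Csf1r* had higher means in matNeu cells (83.8 and 304 TPM) than in preNeu (11.4 and 13.8 TPM) and the other 6 had lower ones. *Vcam1*, *C1qa* and *C1qb* had higher means in preNeu (186, 24.9 and 37.5 TPM) than in GMPs (24.9, 1.42 and 1.37 TPM). The part of such cells in the results below was not tested.

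The 3 antiprotease genes did not all rise at the same step of neutrophil differentiation. *Slpi* was present from GMPs on and was highest in matNeu cells, *Wfdc21* was close to absent in GMPs and highest in preNeu, and *Wfdc17* was near 0 until the matNeu stage. *Slpi* had the highest level of the 3 in GMPs and in matNeu cells and *Wfdc21* in preNeu.

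*Slpi* had 75.2, 99.7 and 98.3 TPM in the 3 GMP libraries (mean 91.1 ± 13.8, SD, n = 3) and 93.7, 74.4 and 66.2 TPM in the preNeu libraries (78.1 ± 14.1, n = 3). These groups overlapped. In matNeu cells its level was 2422, 1774 and 1517 TPM (1904 ± 466, n = 3), and each matNeu library was above every library of the other cell types. *Slpi* ranked between 46 and 102 among all genes of a matNeu library, against ranks from 1547 to 2789 in the other libraries.

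*Wfdc21* had 1.3, 5.58 and 1.7 TPM in GMPs (2.86 ± 2.36, SD, n = 3). In preNeu it had 550, 474 and 480 TPM (501 ± 42.3, n = 3), and in matNeu cells 330, 284 and 142 TPM (252 ± 98, n = 3). The cell types did not overlap, with every preNeu library above every matNeu library and every matNeu library above every GMP library. In preNeu *Wfdc21* ranked between 198 and 241 among all genes.

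*Wfdc17* was listed at 0, 0.85 and 0 TPM in GMPs and at 0, 1.23 and 0.91 TPM in preNeu, and these values overlapped. In matNeu cells it had 190, 207 and 103 TPM (167 ± 56, SD, n = 3), far above every other library. A fold against levels this close to 0 is not given. The third matNeu library was the lowest of its group for all 3 genes.

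**Figure D1:**
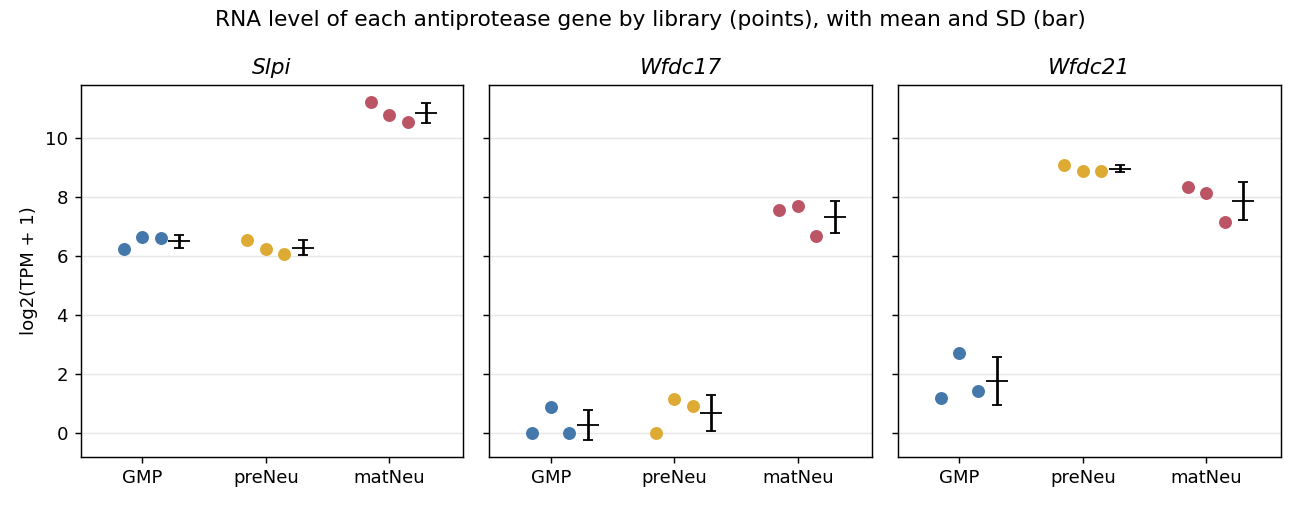
RNA level of *Slpi*, *Wfdc17* and *Wfdc21* as log2(TPM + 1) on the vertical axis in GMP, preNeu and matNeu libraries, with 1 point per library and a bar for the mean and SD of 3 libraries. *Slpi* and *Wfdc17* stand apart in matNeu cells, whereas *Wfdc21* is high in preNeu and somewhat lower in matNeu cells.

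Within a cell type the order of the levels was clear in all but 1 case. In GMPs *Slpi* was above *Wfdc21* by 17.9 to 57.9 times in each library, and *Wfdc21* was above *Wfdc17*. In preNeu *Wfdc21* was highest, and the level of *Slpi* was 0.138 to 0.17 of that of *Wfdc21*. In matNeu cells *Slpi* was again highest, at 6.25 to 10.7 times *Wfdc21* and 8.55 to 14.7 times *Wfdc17*. The ranges of *Wfdc17* and *Wfdc21* overlapped in matNeu cells, although *Wfdc17* was lower within each library, at 0.577 to 0.731 of *Wfdc21*. In the summed TPM of the 3 genes *Slpi* made up 93.9 to 98.3% in GMPs, *Wfdc21* 85.4 to 87.7% in preNeu, and *Slpi* 78.3 to 86.1% in matNeu cells. Among these 3 genes, the RNA of preNeu was thus mostly that of *Wfdc21*, and that of matNeu cells mostly that of *Slpi*. Other protease inhibitors are not part of this sum.

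The step from GMP to preNeu asks what changes when a progenitor commits to the neutrophil lineage. *Wfdc21* rose by 7.18 on the scale of log2(TPM + 1) (SE 0.391, adjusted p = 2.39e-07, limma), and its mean TPM was 175 times that of GMPs. *Slpi* differed by -0.22 (95% interval of ± 0.433, adjusted p = 0.353), so no change of it was shown. For *Wfdc17* the difference was 0.40 (SE 0.404, adjusted p = 0.42). It reached 1 TPM in 1 preNeu and 3 matNeu libraries and would not have passed the filter (1 TPM in 3 or more libraries) without the latter. Of 13061 genes tested 14.7% were called higher and 44.3% lower at this step, so a rise was the less common call. The median gene changed by -0.52, and relative to that median the estimates of *Slpi* and *Wfdc17* lie higher. With each library centred on its median, 3828 genes were called higher and 3166 lower (2614 and 4438 of 13270 when scaled without the 10 most abundant genes), the difference of *Slpi* was 0.41 (adjusted p = 0.125), and that of *Wfdc17* reached 1.03 (adjusted p = 0.0467).

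From preNeu to matNeu, the step of final maturation, *Slpi* and *Wfdc17* rose and *Wfdc21* was lower. *Slpi* rose by 4.58 (SE 0.195, adjusted p = 1.23e-08, limma), a ratio of mean TPM of 24.4. The rise of *Wfdc17* was 6.63 (SE 0.404, adjusted p = 1.56e-07), a size that depends on the pseudocount of 1 and was 8.28 with a pseudocount of 0.1. As *Wfdc17* was tested only through its matNeu libraries, its p-values in comparisons with matNeu cells add no support to its levels by library. *Wfdc21* fell by 1.08 (SE 0.391, adjusted p = 0.0333), and its mean TPM in preNeu was 1.99 times that in matNeu cells. At this step 22.9% of the genes tested were called higher and 39.8% lower. The median gene changed by -0.32, and centring each library on its median turned the split of calls to 5530 higher and 3251 lower.

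The call of the lower *Wfdc21* level was not stable. Its log2 difference was -0.31 with each library centred on its median (adjusted p = 0.507), and it also lost the call with a pseudocount of 0.1 (adjusted p = 0.0774) and without the filter on low values (adjusted p = 0.0819). Without the third matNeu library, the lowest of its group, the difference was -0.71 (adjusted p = 0.125), and leaving out preNeu library 1, 2 or 3 gave adjusted p-values of 0.0907, 0.0626 and 0.0682. The rise of *Slpi* at this step held its call under every one of these settings. That of *Wfdc17* did too, but this adds no support, as the gene was tested only through its matNeu libraries.

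Over the whole path from GMP to matNeu, *Slpi* rose by 4.35 (SE 0.195, adjusted p = 7.49e-09, limma), *Wfdc21* by 6.11 (SE 0.391, adjusted p = 1.08e-07) and *Wfdc17* by 7.03 (SE 0.404, adjusted p = 4.62e-08). The ratios of mean TPM were 20.9 for *Slpi* and 88.1 for *Wfdc21*. Of all genes tested 22.8% were called higher and 54.1% lower in this comparison, with a median change of -0.92. With each library centred on its median 6023 genes were higher and 4063 lower, and all 3 antiprotease genes stayed higher, by 5.75, 7.5 and 8.43 for *Slpi*, *Wfdc21* and *Wfdc17*.

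**Figure D2:**
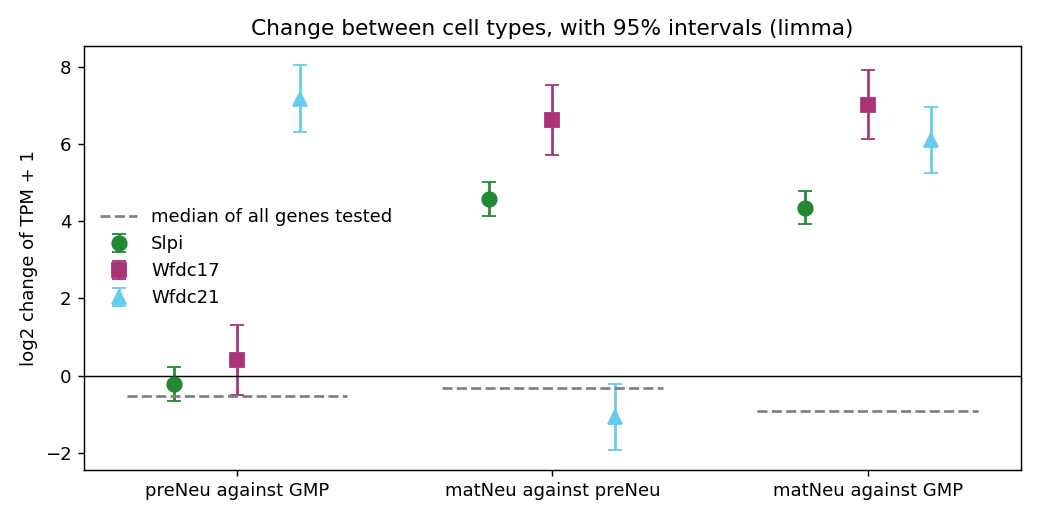
Change of *Slpi*, *Wfdc17* and *Wfdc21* between cell types as the log2 change of TPM + 1 on the vertical axis, with 95% intervals from the limma fit over 9 libraries and the median of all genes tested as a dashed line. *Wfdc21* rises from GMP to preNeu by 7.18, whereas *Slpi* and *Wfdc17* rise from preNeu to matNeu by 4.58 and 6.63.

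Whether a gene changed more at the later than at the earlier step was tested in the same fit. The change from preNeu to matNeu minus that from GMP to preNeu was 4.80 for *Slpi* (SE 0.338, adjusted p = 1.47e-06, limma) and 6.23 for *Wfdc17* (SE 0.7, adjusted p = 4.37e-05). The rise of *Slpi* thus belonged to the later step. By its levels that of *Wfdc17* did too, but this gene was tested only through its matNeu libraries, so its p-value adds no support. For *Wfdc21* it was -8.26 (SE 0.678, adjusted p = 4.44e-06), which places its rise at the earlier step. Of all genes tested 26.4% had a higher change at the later step and 21.5% a lower one, and scaling without the 10 most abundant genes gave 2491 higher and 4002 lower. The 3 antiprotease genes kept the sign and the call of this contrast under that scaling.

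The RNA of the neutrophil serine proteases was nearly lost at the step at which *Slpi* and *Wfdc17* rose. *Elane* had a mean of 7314 TPM in GMPs, 2815 in preNeu and 3.41 in matNeu cells (n = 3 each). It differed by -1.38 between preNeu and GMPs (adjusted p = 0.0684), and it was lower in matNeu cells than in preNeu by -9.93 on the log2 scale (SE 0.594, adjusted p = 1.35e-07, limma). *Prtn3* and *Ctsg* were already lower in preNeu than in GMPs, by -2.00 and -3.31 (adjusted p = 0.000967 and 4.87e-05), a step at which no change of *Slpi* was shown. From preNeu to matNeu *Prtn3* fell from a mean of 724 to 3.7 TPM and *Ctsg* from 290 to 1.01 TPM, by -7.46 and -7.45 (adjusted p = 3.77e-08 and 5.74e-08, limma). *Ctsc*, the peptidase that activates these proenzymes, was lower in preNeu than in GMPs by -3.11 (SE 0.219, adjusted p = 1.39e-06) and then differed by -0.05 (adjusted p = 0.864), with a mean of 23.3 TPM in preNeu and 22 TPM in matNeu cells. The protease *Prss57* was lower by -3.96 at the later step (SE 0.266, adjusted p = 3.22e-07). All 5 genes of this list were lower in matNeu cells than in GMPs, also with each library centred on its median, with a median log2 change of -9.46 against -0.92 for all genes tested. In this comparison 54.1% of all genes tested were called lower.

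The summed TPM of *Slpi*, *Wfdc17* and *Wfdc21* was set against that of *Elane*, *Prtn3* and *Ctsg* in each library, as a description. For every 100 TPM of protease RNA there were 0.584, 0.921 and 0.686 TPM of RNA of the 3 genes in the GMP libraries and 15.8, 13.1 and 17.1 TPM in the preNeu libraries. In the matNeu libraries the 3 genes summed to 2941, 2265 and 1762 TPM and the proteases to 2.01, 18.8 and 3.52 TPM. A level per 100 TPM of protease RNA is not given for protease sums this close to 0. The 3 genes were above the proteases in each matNeu library and below them in every other library. In preNeu *Wfdc21* made up 85.4 to 87.7% of the sum of the 3 genes, so the ratio there was mostly that of *Wfdc21*. Whether WFDC17 and WFDC21 inhibit these proteases was not measured. The ratio depends on which genes enter it. With *Serpinb1a* added, a gene chosen after seeing the data, the summed RNA was 3.72 to 5.25 TPM for every 100 TPM of protease RNA in GMPs. In preNeu it was 57.5 to 73.9 TPM. These are RNA levels, and the granule proteins were not measured.

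**Figure D3:**
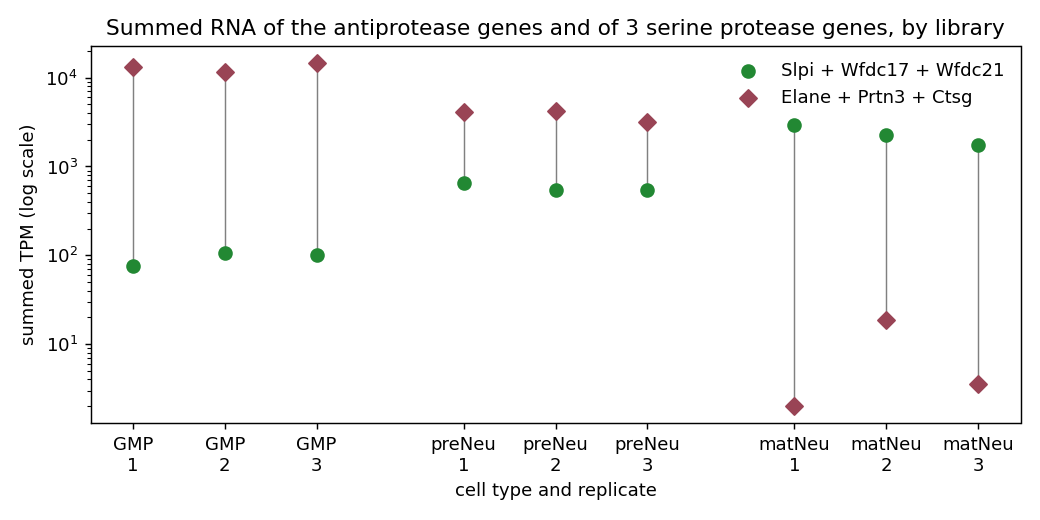
Summed TPM of *Slpi*, *Wfdc17* and *Wfdc21* (circles) and of *Elane*, *Prtn3* and *Ctsg* (diamonds) in each of the 9 libraries, on a logarithmic vertical axis, with a line joining the sums of 1 library. The proteases are above the antiproteases in GMP and preNeu libraries and below them in the matNeu libraries.

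In the rest of the WFDC family little RNA was found. Of the 23 listed genes 6 were tested, and the other 17 did not pass the filter, with 13 of them listed at 0 in every library. *Wfdc18*, which lies between *Wfdc17* and *Wfdc21*, was at 0 in GMPs and reached 2.82 ± 1.59 TPM in matNeu cells (SD, n = 3). It passed the filter through the matNeu libraries alone, and its log2 difference between matNeu and preNeu was 1.67 (SE 0.32, adjusted p = 0.000917, limma). *Wfikkn2*, which passed through the GMP libraries alone, was lower in preNeu than in GMPs by -1.08 (SE 0.221, adjusted p = 0.00168, limma). For *Wfdc18* and *Wfikkn2* these p-values add no support, since each gene was tested only through the cell type in which it was highest. *Wfikkn1* had a mean of 3.3 TPM in GMPs, 1.36 in preNeu and 0.705 in matNeu cells and passed no test. Next to *Slpi*, *Wfdc17* and *Wfdc21*, no other listed WFDC gene exceeded 8.2 TPM in any library.

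Other families of protease inhibitors were also measured. *Serpinb1a*, an inhibitor of the neutrophil serine proteases that acts inside the cell, had 484 ± 36 TPM in GMPs, 1829 ± 38 in preNeu and 79.5 ± 27.5 in matNeu cells (SD, n = 3 each). It rose by 1.92 (SE 0.19, adjusted p = 1.33e-05, limma) and then fell by 4.56 (SE 0.19, adjusted p = 1.03e-08), the reverse of *Slpi* at the later step. Of 11 serpins tested 4 were higher and 6 lower in preNeu than in GMPs, and none was higher and 6 were lower in matNeu cells than in preNeu, where centring each library on its median gave 2 higher and 5 lower. Of all genes tested 14.7% were called higher and 44.3% lower at the earlier step, and 22.9% and 39.8% at the later step. Centring gave 42.3% higher and 24.9% lower at the later step. Of the 11 serpins 5 would not have passed the filter without the GMP libraries, so these counts support nothing about the list. *Serpine2* fell by 4.45 at the later step (SE 0.233, adjusted p = 4.94e-08), and *Serpinb6a* rose by 2.17 and then fell by 2.16.

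The cystatins and stefins, inhibitors of cysteine cathepsins, had members that rose at the same step as *Slpi* and *Wfdc17*. Of 8 tested, 6 were called higher and 1 lower in matNeu cells than in preNeu, where 22.9% and 39.8% of all genes tested were. However, *Stfa2*, *Stfa2l1*, *Stfa3* and *BC100530* would not have passed the filter without the matNeu libraries, so the count supports nothing about the list. *Cst3* (cystatin C) went from 198 ± 33.9 to 580 ± 119 TPM (SD, n = 3 each), a rise of 1.54 (SE 0.176, adjusted p = 1.95e-05, limma). *Stfa2l1* reached 98.4 TPM in matNeu cells, although stefin A genes are close copies whose reads can be shared. *Cst7* (cystatin F) was the one called lower, with a mean of 395 TPM in GMPs, 79.7 TPM in preNeu and 0.71 TPM in matNeu cells. The genes of the secondary and tertiary granules were high in preNeu, as *Wfdc21* was, and all 11 were higher in preNeu than in GMPs, with a median log2 change of 7.86. At that step 14.7% of all genes tested were called higher. *Ngp*, *Chil3* and *Ltf*, the most abundant of them, had 71395, 40629 and 25388 TPM in preNeu and 2283, 200.1 and 467 TPM in matNeu cells. From preNeu to matNeu 4 of the 11 were higher (*Mmp8*, *Mmp9*, *Mmp25* and *Hp*, named after their values were seen) and 6 were lower, *Ngp*, *Chil3* and *Ltf* among them. Of all genes tested 22.9% were called higher and 39.8% lower there, so this split says little about the list.

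**Figure D4:**
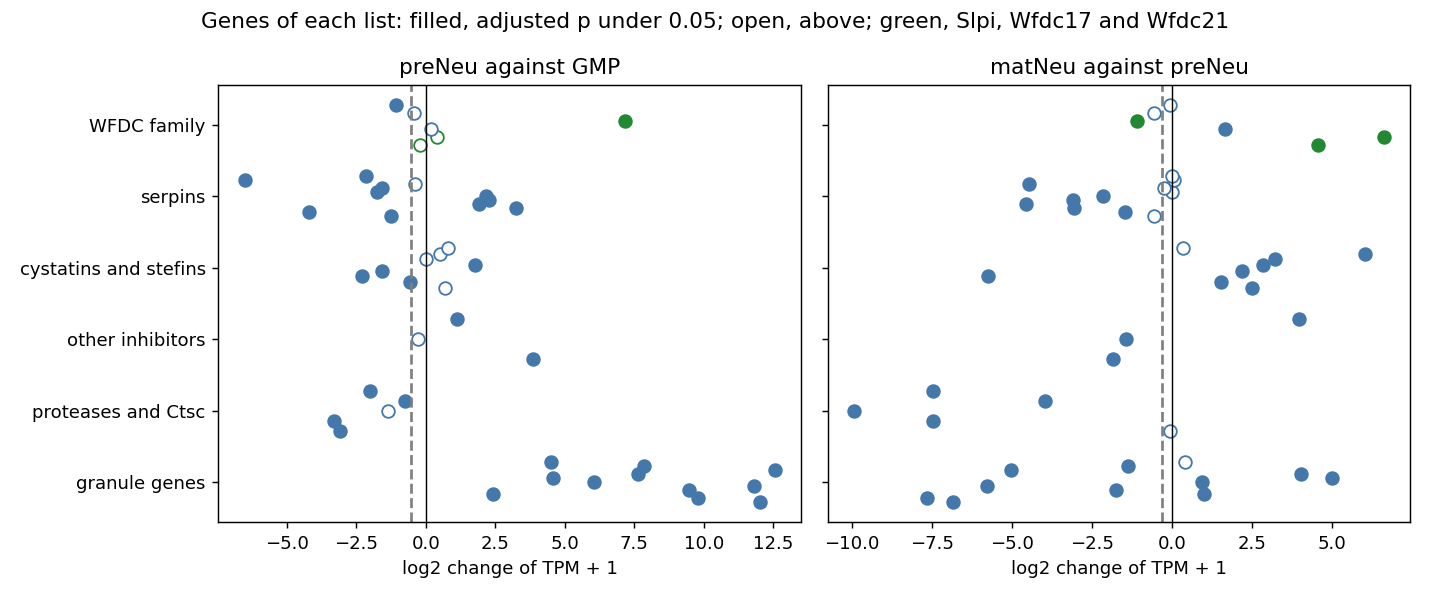
Log2 change of TPM + 1 (horizontal axis) of every tested gene of 6 gene lists from GMP to preNeu (left) and from preNeu to matNeu (right). Each point is 1 gene, filled where the adjusted p is under 0.05, with *Slpi*, *Wfdc17* and *Wfdc21* in green and the median of all genes tested as a dashed line. The cystatins and stefins lie mostly to the right at the later step and the serpins to the left or near 0. Without the matNeu libraries 4 of the 8 cystatins and stefins would not have passed the filter. The same holds for 5 of the 11 serpins without the GMP libraries, so these positions support nothing about the lists.

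The genes whose profile over the 9 libraries was most like that of each antiprotease gene were taken as a description, by Pearson's r of log2(TPM + 1). For 9 libraries of 3 cell types such values are high for any gene that separates the cell types in the same way. *Ier3* (r = 0.995) and *Gm5483*, a gene of the stefin family that reached 158 TPM in matNeu cells and was at 0 elsewhere (r = 0.996), were among the 5 nearest to *Slpi*, with *1810010D01Rik*, *Nme5* and an immunoglobulin kappa variable gene the others. Nearest to *Wfdc17* were *Mcam* (r = 0.999), *Ncald*, *Gpr137b* and the interferon-stimulated genes *Ifit3b* and *Ifit1bl1*. *Ifit3b* went from 0.895 TPM in preNeu to 207 TPM in matNeu cells. Nearest to *Wfdc21* were *Optn* (r = 0.995), *St3gal5*, *Slco4c1*, *Sned1* and *S100a8*, a calcium-binding protein of neutrophils with 26438 TPM in preNeu and 23757 TPM in matNeu cells.

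Of the genes within 100 kb of *Slpi*, *Wfdc17* or *Wfdc21*, 24 others were in the expression table and 9 were tested, of which 4 were higher and 1 was lower in matNeu cells than in preNeu, where 22.9% and 39.8% of all genes were. Of the 9, 4 would not have passed the filter without the matNeu libraries. The chemokine genes *Ccl3* and *Ccl4* lie upstream of *Wfdc17*, 54636 and 39308 bp away. *Ccl3* had 4.96 TPM in GMPs, 0.852 in preNeu and 69.6 ± 32.7 in matNeu cells (SD, n = 3) and rose by 5.24 at the later step (SE 0.539, adjusted p = 8.69e-06, limma). *Ccl4* rose by 4.32 at that step (SE 0.502, adjusted p = 2.25e-05). *Heatr6*, which starts 1054 bp downstream of *Wfdc21*, had 34.4, 39.6 and 17.3 TPM in GMPs, preNeu and matNeu cells. It did not rise with *Wfdc21* from GMP to preNeu (0.19, adjusted p = 0.547) and was lower by -1.12 at the later step (adjusted p = 0.00269). Near *Slpi*, *Sdc4* rose by 1.35 at the earlier step (SE 0.318, adjusted p = 0.00399) but did not exceed 3.51 TPM, and *Sys1* rose by 0.62 at the later step (SE 0.168, adjusted p = 0.0078). *Dbndd2* near *Slpi*, and the pseudogenes *Gm11434* and *Gm11438* near *Wfdc17* and *Wfdc21*, passed the test at neither step, with means of at most 1.64, 1.12 and 5.33 TPM in a cell type. *Matn4*, which was not tested but holds a CHD4 peak and whose end lies 298 bp from the long *Slpi* transcript, did not exceed 0.203 TPM.

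CHD4 occupied chromatin near each of the 3 genes in WT GMPs, although only *Slpi* was well expressed in these cells. A peak is a region where the antibody enriched DNA over background, and its fold enrichment is the value given by the peak caller. Counting each gene body and 10 kb on either side, CHD4 had 6 peaks at *Slpi*, 1 at *Wfdc17* and 3 at *Wfdc21*. Of all 21951 protein-coding genes 32.4% had such a peak. With 1 library per genotype there is no replicate check of any peak.

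All CHD4 peaks of *Slpi* lay upstream of its first transcript, and none of them covered the start. The strongest was at chr2:164372320-164373098, with a fold enrichment of 29.5 that exceeded 95.1% of the 35790 CHD4 peaks of WT GMPs. Its summit lay 16342 bp upstream of the start, in an intron of the long *Slpi* transcript, and its sequence is the first one printed above. A second peak at chr2:164367579-164368243 had a fold enrichment of 14 and lay 11273 bp upstream. The other 4 had fold enrichments of 5.89 to 8.38, and the farthest of them lay in an exon of *Matn4*. Taken from the RefSeq bounds of *Slpi*, which leave out the long transcript and were tried after seeing the data, 1 CHD4 peak was within 10 kb, 3377 bp upstream of the start.

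The CHD4 peak of *Wfdc17* covered its start, at chr11:83703726-83704177. It had a fold enrichment of 10.1, above 65.5% of the list. *Wfdc21* had its strongest CHD4 peak at chr11:83737092-83737985, 9419 bp upstream of the start, with a fold enrichment of 22.2, above 90.8% of the list. A peak 3166 bp upstream had a fold enrichment of 18 and a weaker one 1357 bp upstream a fold enrichment of 5.73. The 3 peaks of *Wfdc21* were intergenic.

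In Gfi1KO GMPs 2 of these 10 sites had a CHD4 peak, the strongest site of *Slpi* and the strongest site of *Wfdc21*. The Gfi1KO peak at *Slpi* was at chr2:164372795-164372944 with a fold enrichment of 5.19, and that near *Wfdc21* at chr11:83737431-83737748 with a fold enrichment of 6.08. No peak of Gfi1KO GMPs lay within 10 kb of *Wfdc17*. Of all protein-coding genes 10.2% had a CHD4 peak of Gfi1KO GMPs in this range, and the list held 7316 peaks in all. Among WT sites with a fold enrichment within 10% of that of the strongest *Slpi* site 95.8% had a peak in Gfi1KO GMPs, and the share was 77.8% for the strongest site of *Wfdc21*. It was 53.6% for the peak 3166 bp upstream of *Wfdc21*, 28.9% for the second peak of *Slpi* and 8.71% for the peak at the *Wfdc17* start, all 3 of which had none. Over all 35790 WT sites 18.5% had a peak in Gfi1KO GMPs, close to the share among these 10. The 2 sites with a Gfi1KO peak were the strongest in WT GMPs of the 10. The expression of the 3 genes in Gfi1KO cells was not analysed here.

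H3K4me2 covered more of *Wfdc21* in preNeu and more of *Wfdc17* in matNeu cells, the stages at which their RNA rose, whereas *Slpi* was more covered already in preNeu. The comparison rests on 1 library per cell type and has no test. In the window of the gene and 10 kb on either side, peaks in GMPs, preNeu and matNeu cells covered 13.3%, 44.6% and 42.6% for *Slpi*, 2.62%, 0.934% and 14% for *Wfdc17*, and 14.2%, 72.2% and 69.8% for *Wfdc21*. A peak of H3K4me2 in this window was found for all 3 genes in every cell type, where 73.5%, 74.1% and 72% of protein-coding genes had one in GMPs, preNeu and matNeu cells, so its presence alone says little. The lists differed in the length they covered, with 49.8 Mb in GMPs, 97.9 Mb in preNeu and 80.4 Mb in matNeu cells.

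At *Wfdc21* GMPs had separate peaks where preNeu and matNeu cells each had 1 wide domain. The median fold enrichment of the whole list was 2.89 in GMPs, 4.55 in preNeu and 3.78 in matNeu cells, so folds are not on 1 scale between lists. In GMPs 4 peaks had fold enrichments of 2.45 to 3.77, of which the strongest lay over the start of *Heatr6* and 1 of 316 bp lay within *Wfdc21*. The strongest exceeded 85.3% of the GMP list, and the others 10.7 to 43% of it. In preNeu a peak of 22654 bp at chr11:83732849-83755502 covered the whole gene and all 3 CHD4 sites, with a fold enrichment of 15.3 that exceeded 99% of the preNeu list. In matNeu cells a peak of 17928 bp at chr11:83737193-83755120 covered the gene, with a fold enrichment of 10.3 that exceeded 94.6% of the matNeu list. Both domains also ran over the start of *Heatr6*, so their width and fold enrichment are not those of *Wfdc21* alone. The share of the window covered was above that of 99.7% of protein-coding genes in preNeu and 99.8% in matNeu cells, against 85.6% in GMPs.

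At *Wfdc17* the whole gene was covered by H3K4me2 in matNeu cells only. A peak of 584 bp within the gene was found in GMPs, and in preNeu no peak touched the gene. In matNeu cells a peak of 3108 bp at chr11:83703241-83706348 covered the whole gene and the CHD4 site of GMPs at its start. Its fold enrichment of 3.41 exceeded 43.2% of the matNeu list, and at a −log10 q-value of 3.97 it was not kept when at least 5 was required. The matNeu stage was also the one at which its RNA rose.

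At *Slpi* a peak over the coding part was present in GMPs with a fold enrichment of 3.08, above 59% of the GMP list. This peak covered 69.7% of the first transcript but not its start. It was wider in preNeu, at chr2:164354027-164357610, and in matNeu cells, at chr2:164353728-164357470, where it covered the start and the whole transcript. Its fold enrichment was 8.15 in preNeu, above 75.1% of that list, and 10.2 in matNeu cells, above 94.1% of that list. The strongest CHD4 site, upstream, had no H3K4me2 peak over it in GMPs. The region was not free of the mark there, as a GMP peak at chr2:164373163-164373943 (fold enrichment 2.64) lay right beside that site. This GMP peak overlapped the neighbouring CHD4 site at chr2:164373254-164373533. In preNeu a peak of 4733 bp (fold enrichment 8.72) and in matNeu cells a peak of 7886 bp (fold enrichment 5.28) covered both CHD4 sites. Of the 10 CHD4 sites near the 3 genes 4 overlapped an H3K4me2 peak in GMPs, 9 did so in preNeu and 9 in matNeu cells. Of all 35790 CHD4 sites 37.8%, 59.5% and 52.5% did so, so more sites lay under the longer lists of preNeu and matNeu cells in general.

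**Figure D5:**
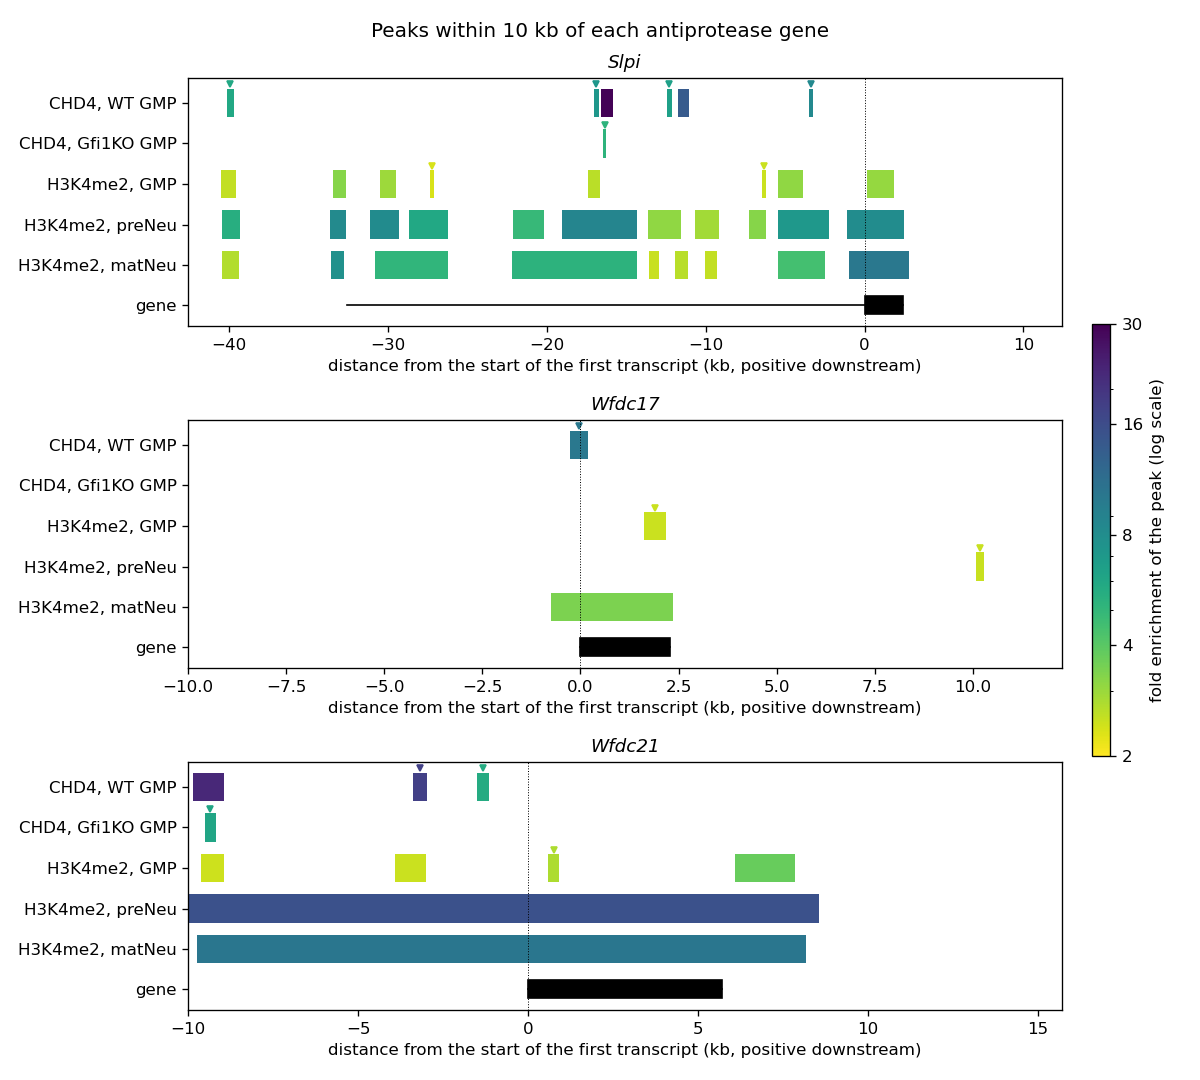
Peaks in each gene and within 10 kb of it for CHD4 in WT and Gfi1KO GMPs and for H3K4me2 in GMP, preNeu and matNeu cells (rows), by distance in kb from the start of the first transcript (horizontal axis, positive downstream, cut at the window). The colour gives the fold enrichment on a log scale, triangles mark narrow peaks, the black bar is the first transcript and the thin line the whole annotated gene. Wide H3K4me2 domains cover *Wfdc21* in preNeu and matNeu cells, and *Wfdc17* is covered over its whole length in matNeu cells only.

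The ATAC-seq lists given for preNeu and matNeu cells were identical, with 16307 peaks, and cannot separate these cell types. In this list a peak of 212 bp lay in the first exon of *Slpi*, 136 bp downstream of the start, with a fold enrichment of 4.18. *Wfdc17* had no such peak within 10 kb, and the peak nearest to *Wfdc21* lay in *Heatr6*. Of all protein-coding genes 52.9% had a peak of this list in the same range.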

How the data were processed

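RNA-seq (9 libraries), CHD4 and H3K4me2 ChIP-seq and ATAC-seq lists were used, with samples grouped by title; titles and cell type labels differ for 13 of 18 samples. The genes and lists were chosen with earlier results of these data known. The authors deposited TPM per gene. The submitters' processing notes name FastQC 0.11.5, MultiQC 1.6, Trimmomatic 0.36, BWA 0.7.17, MACS2 2.1.0 and kallisto 0.44.0, with no role given, and the methods name HTSeq and DESeq; which tool gave TPM is not given in the sources used here. No column of samples was left unused (0). The authors deposited for each peak a fold enrichment, a linear ratio, and a −log10 q-value, and its score was not used. The GFI1 and H3K4me3 lists have 3105 and 2179 peaks past the ends of GRCm38 chromosomes and were not used here.

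limma 3.58.1 (R 4.3.3) was run on log2(TPM + 1) over 13061 genes (minimum of 1 TPM in 3 or more libraries), with a mean-variance trend, cell type as the term and Benjamini-Hochberg adjustment over all genes at 0.05. The fit was tested on simulated data. No count test was run, since TPM are not counts. Peaks in a gene or within 10 kb were read with Python 3.11.15, a WT site counted as kept at an overlap of 1 bp, and sequences came from GRCm38 (RefSeq) with pysam 0.24.0. Genes were named by a rule: *Slpi*, *Wfdc17* and *Wfdc21*, tested WFDC and protease genes, tested neighbours within 100 kb, the 3 most abundant genes of other lists, and the 5 most alike genes of each. Other genes were named after their values were seen, among them *Matn4*, *Serpinb1a* in the ratio and granule genes beyond the 3 most abundant. Proteins were not printed, and a ratio of summed TPM was given without a test.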

Additional observations from a re-analysis of the deposited data

Results flagged for a closer look

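The change at the later step differed from that at the earlier step for each of the 3 genes, by the limma contrast of the 2 steps over 9 libraries. For *Slpi* the change from preNeu to matNeu minus that from GMP to preNeu was 4.80 on the log2 scale (adjusted p = 1.47e-06), with every matNeu library above every preNeu library and the GMP and preNeu libraries overlapping. For *Wfdc17* it was 6.23 (adjusted p = 4.37e-05), with the same arrangement of libraries. That gene passed the filter only through its matNeu libraries, so its p-value is no support of its own. For *Wfdc21* it was -8.26 (adjusted p = 4.44e-06), since all 3 preNeu libraries were above the GMP libraries and all 3 matNeu libraries below those of preNeu. These contrasts held under every alternative that was run.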

How the results depend on the processing

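The calls of *Slpi*, *Wfdc17* and *Wfdc21* held in 87 of 92 cases under other settings and in 104 of 108 with 1 library left out, and 2 cases without a call changed sign. The lower *Wfdc21* level in matNeu cells than in preNeu lost its call with a pseudocount of 0.1 (-1.08, adjusted p = 0.0774), with no filter (-1.08, 0.0819), without the trend (-1.08, 0.0517) and with each library centred on its median (-0.31, 0.507). Over the single libraries left out it ranged from -1.31 to -0.71, with adjusted p from 0.00584 to 0.125. The cause was not tested. Centring made the difference of *Slpi* between preNeu and GMP 0.41 and that of *Wfdc17* 1.03 (called), and scaling without the 10 most abundant genes gave 0.098 for *Slpi*. With *Elane* alone the log2 ratio of antiproteases to protease differed by 3.996 between preNeu and GMP, against 4.39. With *Serpinb1a* added to *Slpi*, *Wfdc17* and *Wfdc21*, an alternative chosen after seeing the data, the log2 ratio differed by 3.83 between preNeu and GMP. It differed by 9.51 between matNeu and preNeu and by 13.3 between matNeu and GMP. These values were taken without a pseudocount. Without *Serpinb1a* the differences were 4.39, 11.2 and 15.6 with a pseudocount of 1, and 4.40, 11.5 and 15.9 with 0.1. The matNeu protease sums were close to 0, so differences that involve matNeu cells depend on the pseudocount. For these, the effect of adding *Serpinb1a* cannot be read from the values.

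Leaving out single libraries gave, from GMP to preNeu, -0.36 to -0.11 for *Slpi*, 0.17 to 0.75 for *Wfdc17* and 6.89 to 7.65 for *Wfdc21*. From preNeu to matNeu it gave 4.39 to 4.73 for *Slpi* and 6.28 to 6.94 for *Wfdc17*, and from GMP to matNeu 4.17 to 4.5, 6.84 to 7.34 and 5.82 to 6.58 for *Slpi*, *Wfdc17* and *Wfdc21*. The fit of preNeu and GMP alone could not test *Wfdc17*, which did not pass the filter there. With the replicate number as a block (replicate block) no call changed, and the lower *Wfdc21* level (-1.08) had an adjusted p of 0.0228. Libraries of the same number correlated by -0.039 to 0.123 in their deviations, and those of different numbers by -0.128 to 0.0706. With 3 libraries per cell type these ranges cannot tell whether libraries of the same number were paired.

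For peaks, 41 of 63 values moved by no more than 1.5 times, and windows of another size change a share by construction. With 25 kb on either side the window was covered by H3K4me2 in GMPs, preNeu and matNeu cells to 8.58%, 28.8% and 27.6% for *Slpi*, 1.12%, 1.61% and 7.28% for *Wfdc17* and 7.15%, 40.7% and 38.1% for *Wfdc21*, with 3 CHD4 peaks for *Wfdc17* and 6 for *Wfdc21*. With 5 kb *Wfdc17* was covered to 4.76%, 0% and 25.3%, and *Wfdc21* had 0 kept CHD4 sites. At a −log10 q-value of at least 5 coverage was 0% for *Slpi* in GMPs and for *Wfdc17* in every cell type, and 6.89% for *Wfdc21* in GMPs. RefSeq bounds left 1 CHD4 peak for *Slpi*, with 0 kept. Each ChIP-seq group has 1 library, and TPM keeps no depth.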

Other observations

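Inhibitors of metalloproteases and of membrane-bound serine proteases also changed along this path. *Timp2*, a tissue inhibitor of metalloproteases, rose from a mean of 3.14 TPM in preNeu to 65 TPM in matNeu cells (SD 15.6, n = 3), a log2 change of 3.97 (SE 0.257, adjusted p = 2.41e-07, limma). *Reck*, a membrane-anchored inhibitor of metalloproteases, had 4.07 TPM in GMPs, 57 in preNeu and 16.2 in matNeu cells. It rose by 3.85 and then fell by 1.85 (adjusted p = 8.92e-05 and 0.00825, limma), and its highest level was in preNeu, as for *Wfdc21*. *Spint2* was lower in matNeu cells than in preNeu by -1.43 (SE 0.184, adjusted p = 4.91e-05). The 9 other listed genes of this group did not pass the filter.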
